A study of Mus musculus with 4 samples.

Results

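Conventional dendritic cells (cDCs) of the bleomycin-injured mouse lung were examined in a single-cell RNA sequencing experiment on 2 wild-type (WT) and 2 Tubb3-/- mice. A cell of any library was taken as a cDC where it had at least 1 UMI (unique molecular identifier, 1 counted transcript) of Flt3 and at least 10 of H2-Ab1, and no UMI of Cd79a, Cd3e, C1qa, Cdh5, Pdgfra or Epcam. These 6 genes mark B cells, T cells, macrophages, endothelial cells, fibroblasts and epithelial cells. Of 32121 deposited cells, 30860 held 200 to 7500 genes and at most 15% mitochondrial UMIs, and 327 of those were cDCs. Within them, cells with Xcr1 or Clec9a, cells with Cd209a and cells with Ccr7, at 1 or more UMIs, were told apart. The genes of this rule, and every difference between the cells it separates, were selected on these same values and are given as a description without a test. The cDCs were compared between genotypes with the mouse as the replicate.

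The Tubb3-/- mice carry Cre in both copies of Tubb3, the β-III tubulin gene, inserted in frame at its translation start, and the WT mice were their littermates. All 4 mice were 8 to 11 weeks old and had received bleomycin, a drug that injures the alveolus and is followed by fibrosis, at 0.8 U/kg into the trachea, with lungs taken on day 14. There was no uninjured group. Cells of each mouse were labelled with a lipid-bound tag and the 4 mice were pooled, once for whole lung cells depleted only of red cells (TER-119) and once for mural-enriched cells depleted of CD31, CD45, EpCAM and TER-119, so no library or batch separated the genotypes within a pool.

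cDCs are bone marrow-derived cells that sample antigen in tissue, carry it to lymph nodes and present it to T cells, and they depend on the receptor tyrosine kinase Flt3. cDC1s, which bear the chemokine receptor Xcr1 and the dead-cell receptor Clec9a and depend on the transcription factors Irf8 and Batf3, are known for cross-presenting antigen on MHC class I to CD8+ T cells. cDC2s, which bear Sirpa and, in many tissues, the lectin Cd209a and depend on Irf4 and Klf4, mainly prime CD4+ T cells. Either kind can mature, switch on Ccr7, the receptor that guides migration along lymphatic vessels, and then expresses Fscn1, Ccl22 and checkpoint ligands.

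The 327 cDCs all came from the whole-cell libraries. They numbered 104 of 3406 cells (3.05%) and 59 of 3119 (1.89%) in WT and 93 of 4179 (2.23%) and 71 of 3456 (2.05%) in the Tubb3-/- mice. The mean ± SD (n = 2) was 2.47% ± 0.822 for WT and 2.14% ± 0.121 for Tubb3-/-, the groups overlapped, and the exact permutation test gave p = 1 (two-sided). With 2 mice against 2 the smallest p this test allows is 0.333. The mural-enriched libraries, from which CD45+ cells had been removed, held 0 cDCs among 3479 to 4815 kept cells each, which allows a share of up to 0.0623% to 0.0862% by counting error alone. The cDCs were deeply sequenced, with a median of 16855 to 18538 UMIs a cell and 1014218 to 1965186 UMIs in all per mouse. No barcode was shared among the 4 whole-cell libraries, and 1 cDC barcode also occurred in a mural-enriched library. Scrublet, a doublet caller, marked 139 of the 14160 whole-cell library cells (0.982%) and 4 of the cDCs, 2 in each WT mouse and none in the Tubb3-/- mice.

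Tubb3 itself was nearly absent from cDCs, at 2 UMIs in WT mouse 1 and 0 in the other 3 mice. Over all whole-cell library cells it was found at 83 and 35 UMIs in WT and at 18 and 17 in Tubb3-/- mice, so the libraries ran in the direction of their labels. Cre was found in no cDC. Xist, the transcript of the inactive X chromosome, was at 20 and 534 UMIs in cDCs of WT mice 1 and 2 and at 5 and 681 in Tubb3-/- mice 1 and 2. Summed UMIs of 4 Y-linked genes were 380 and 12 in WT and 274 and 6 in Tubb3-/- mice, so each genotype had 1 mouse with Y-linked transcripts and 1 with Xist.

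The values of the cells near the limits were as follows. In the 63 cDCs with a single Flt3 UMI, Zbtb46, a transcription factor of cDCs, was at 99.6 CPM (the UMIs of a gene per 1000000 summed UMIs of the cells), against 136 CPM in the 264 with 2 or more. It was at 31.8 CPM in 144 cells with H2-Ab1 but no Flt3, where Lyz2, the lysozyme of macrophages and monocytes, was at 24053 CPM against 1884 CPM in cDCs. The 12 cDCs with 10 to 19 H2-Ab1 UMIs held 4972 CPM of Cd74 and 10599 CPM of Lyz2, and the 20 cells with 5 to 9 H2-Ab1 UMIs held 4215 and 11494 CPM. Median Flt3 was 3 UMIs and median H2-Ab1 151 UMIs among the cDCs. In 2270 endothelial cells without Ptprc, which should lack these genes, Flt3 was found in 0.705% and 10 or more H2-Ab1 UMIs in 4.98%, at a median depth of 8092.5 UMIs against 18080 in cDCs.

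Xcr1 or Clec9a cells without the other class genes were the largest class at 164 of 327 cells (50.2%), Ccr7 cells numbered 39 (11.9%) and Cd209a cells 26 (7.95%). A further 86 cells (26.3%) carried genes of several classes and 12 (3.67%) carried none of them. Of the 86, 41 combined Xcr1 or Clec9a with Ccr7, 36 combined Cd209a with Ccr7, 6 combined Xcr1 or Clec9a with Cd209a, and 3 held all of them. Ccr7 was therefore the shared gene in most of the mixed cells. Scrublet marked 1 of these 86.

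**Figure D1:**
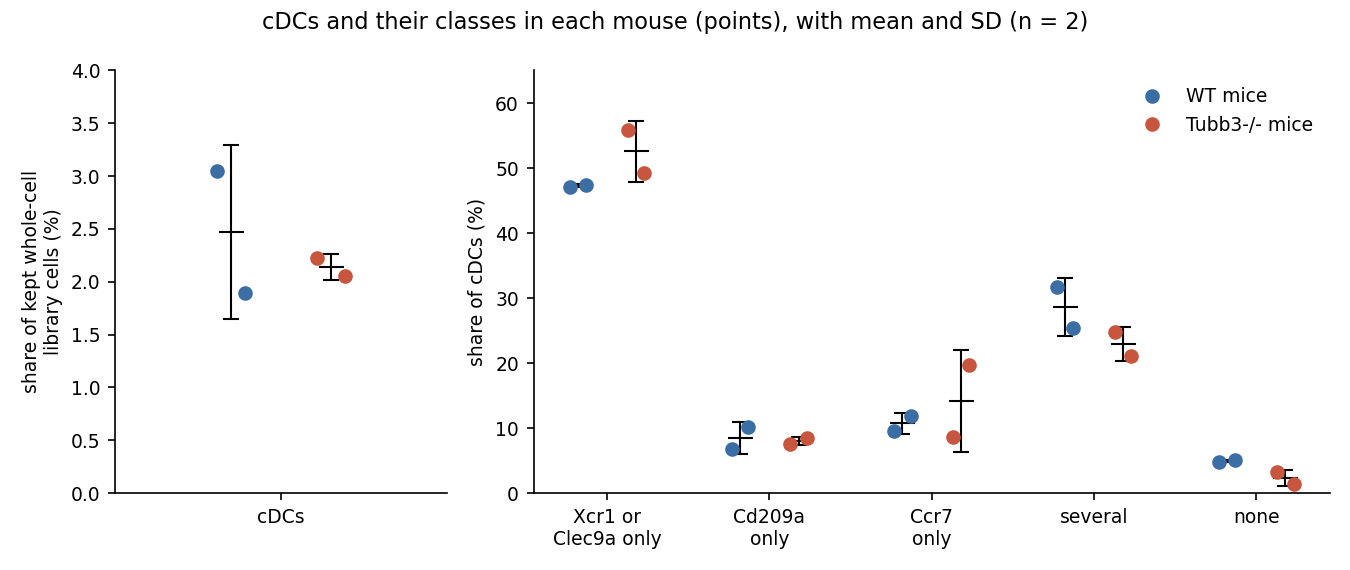
Left, cDCs as a percentage of kept whole-cell library cells; right, each class as a percentage of cDCs. Points are mice (blue WT, red Tubb3-/-), and black bars give mean and SD with n = 2. The cDC share overlapped between genotypes, and the Xcr1 or Clec9a share was at 47.1% and 47.5% in WT and 55.9% and 49.3% in Tubb3-/- mice.

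Xcr1 or Clec9a cells made up 47.1% and 47.5% of cDCs in WT and 55.9% and 49.3% in Tubb3-/- mice. The groups did not overlap, with means of 47.3% ± 0.242 and 52.6% ± 4.68 (SD, n = 2), but the exact permutation p was 0.333, the smallest the design allows. The shares overlapped with Flt3 at 2 or more UMIs and at a mitochondrial limit of 10%. The exact 95% binomial intervals of the 4 shares, which cover counting error only, ran from 34.3% to 66.2% and all overlapped. Counting every cell with Xcr1 or Clec9a, also those with another class gene, the shares were 63.5% and 67.8% in WT and 69.9% and 60.6% in Tubb3-/- mice and overlapped. Cd209a cells were 6.73% and 10.2% of cDCs in WT and 7.53% and 8.45% in Tubb3-/- mice, and Ccr7 cells 9.62% and 11.9% in WT and 8 of 93 and 14 of 71 cells (19.7%) in Tubb3-/- mice, with exact permutation p = 1 for both (n = 2 a group). Tubb3-/- mouse 2 had the highest Ccr7 share and Tubb3-/- mouse 1 the lowest.

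The class genes were not equally clean. Clec9a was found in 27.5% of the 2270 endothelial cells (exact 95% interval 25.7% to 29.4%), whereas Xcr1 was found in 0.617%, Cd209a in 1.41% and Ccr7 in 4.05% of them. In the GENCODE vM21 annotation of GRCm38, Clec9a spans chromosome 6 from 129408862 to 129424763 on the plus strand and overlaps Clec1b and Gm43914 on the same strand, so that reads of these genes may be counted as one another. Of all cDCs with Xcr1 or Clec9a, also those with another class gene, 176 held both, 12 held Xcr1 alone and 26 held Clec9a alone. Clec9a alone was therefore the basis in a minority of these cells. Their number within the class without other class genes is not given here.

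The Xcr1 or Clec9a cells carried the genes known for cDC1s. Their leading genes, ranked by the lowest of the 4 per-mouse ratios to the other classes, were P3h2, Itgae, Airn, Gm36723, Ifi205, Rab7b and Lrrk2. P3h2, a collagen prolyl hydroxylase, was at 368 and 363 CPM in WT and 372 and 292 CPM in Tubb3-/- mice, against 2.76 CPM in Cd209a cells. Itgae, the CD103 integrin chain that binds E-cadherin, was at 211 to 427 CPM in this class and at most 21.9 CPM in the others. The ranking selected genes that were separated in every mouse, so this likeness between mice follows from the choice. Irf8 was at 797 CPM against 16.6 CPM in Cd209a cells, Wdfy4, required for cross-presentation, at 1012 against 177 CPM, and Naaa, a lysosomal amidase, at 871 against 141 CPM. Tlr3, the sensor of double-stranded RNA, was at 86.8 CPM and was not found in Cd209a cells. Irf4 was at 8.22 CPM against 185 CPM in Cd209a cells.

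The Cd209a cells carried Irf4 together with genes that cDC2s share with monocytes. Their leading genes were Ifitm3, Itgam, Cd300a, Plaur, Ms4a6b, Plac8 and Clec4a3. Ifitm3, an interferon-induced membrane protein, was at 2188 and 3191 CPM in WT and 1898 and 3144 CPM in Tubb3-/- mice, and at most 331 CPM in the other classes. Itgam, the CD11b integrin chain, was at 146 CPM against 4.93 CPM in Xcr1 or Clec9a cells. The cDC2 lectins Mgl2 and Clec10a were at 553 and 340 CPM, against 24.0 and 24.3 CPM in Xcr1 or Clec9a cells. Sirpa was at 146 CPM against 19.1 CPM. Zbtb46 was at 66.3 CPM, against 117 CPM in Xcr1 or Clec9a cells and 8.04 CPM in macrophages. Markers of monocytes were also present, with Plac8 at 580 CPM, F13a1 at 127 CPM and Ly6c2 at 71.8 CPM, against 82.5, 5.92 and 12.2 CPM in Xcr1 or Clec9a cells, and their part in the class profile was not tested. With 6 or 7 cells a mouse, these values rest on few cells.

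The Ccr7 cells carried the genes of mature, migratory dendritic cells. Their leading genes were Fscn1, Fabp5, Mreg, Il12b, Il4i1, Zmynd15 and H2-Eb2. Fscn1, the actin-bundling fascin of mature dendritic cells, was at 1496 and 585 CPM in WT and 1465 and 1543 CPM in Tubb3-/- mice, against 0.329 CPM in Xcr1 or Clec9a cells and 2.76 CPM in Cd209a cells. Il12b, the p40 subunit of interleukins 12 and 23, was at 1680 CPM over the class, 45.7 CPM in Xcr1 or Clec9a cells and 0 in Cd209a cells. Il12a and Il23a, which encode the partner subunits, were at 0 and 6.01 CPM in Ccr7 cells. The shared subunit was therefore found in these cells almost without either partner at this depth.

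**Figure D2:**
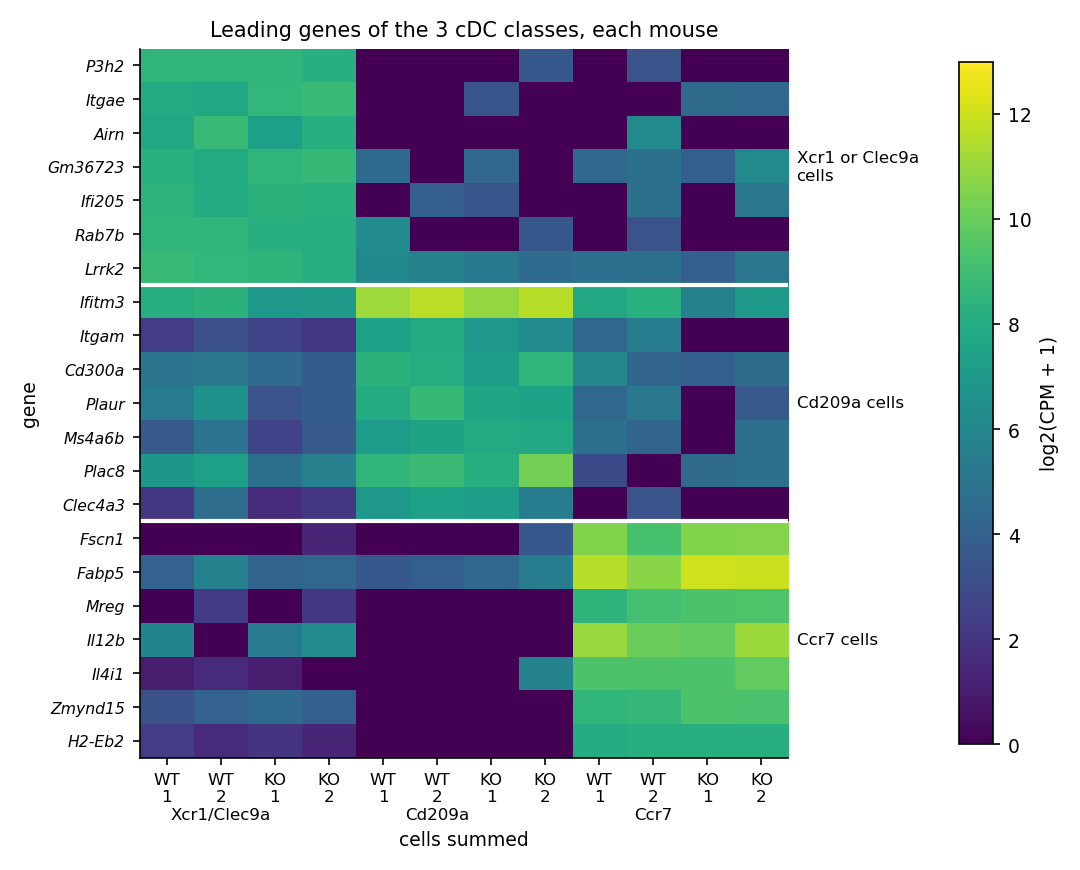
Level of the 7 leading genes of each cDC class, as log2(CPM + 1) of the summed cells of each class in each mouse (KO, Tubb3-/-). Rows are genes grouped by the class they lead and columns are mice within classes. Each block is bright in its own class in all 4 mice, which the ranking selected for.

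Genes of the mature state were high mainly in cells with many Ccr7 UMIs. Among the 22 cDCs with 1 Ccr7 UMI and the 22 with 2 to 7, Fscn1 was at 8.89 and 2.32 CPM, and in the 75 with 8 or more it was at 767 CPM. Il4i1, an amino acid oxidase, went from 44.4 and 2.32 CPM to 507 CPM over the same bins, and Cd274, the PD-L1 ligand, from 51.1 and 72.0 CPM to 494 CPM. Ccl22, which attracts Ccr4-bearing T cells, was already at 151 and 190 CPM in the lower bins, against 49.5 CPM in cells without Ccr7 and 1589 CPM in the top bin. Naaa ran the other way, from 762 CPM without Ccr7 to 562, 506 and 87.6 CPM. Of the 75 cells with 8 or more Ccr7 UMIs, 16 still held Xcr1 or Clec9a and 26 held Cd209a. In cells with 1 to 7 Ccr7 UMIs Fscn1, Il4i1 and Cd274 were thus below their level in the top bin, and median depth ran from 17517.5 to 20627.5 UMIs over the bins.

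Levels also varied with the UMIs of Cd209a, a class gene, and of Flt3, which every cDC held by the rule. In the 39 cells with 10 or more Cd209a UMIs, Mgl2 was at 840 CPM and Irf8 at 71.1 CPM, and in the 256 cells without Cd209a they were at 37.9 and 694 CPM. Fscn1 did not run in a single direction over the Flt3 bins. It was at 153 CPM in the 63 cells with 1 Flt3 UMI, 61.6 CPM in the 147 with 2 to 4 and 320 CPM in the 117 with 5 or more. These bins share the cells of the same 4 mice and differ in depth, with medians of 15060 to 19940 UMIs across the Flt3 bins.

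The 12 cells with none of the class genes had a mixed profile. Ly6d and Klk1, known from plasmacytoid dendritic cells, were at 756 and 222 CPM, against 1.31 and 0 CPM in Xcr1 or Clec9a cells, although Ly6d is also a B cell gene and was at 1059 CPM in the Cd79a B cells. Chil3 and Apoe, genes of macrophages, were at 1735 and 1894 CPM, and Ly6c2 of monocytes at 356 CPM. H2-Aa was at 3954 CPM against 7828 to 8826 CPM in the classes. These cells were 8 in WT and 4 in the Tubb3-/- mice.

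Summed over the cells of a class, Cd74 and H2-Aa were at similar levels in the 3 classes, whereas H2-Eb2 was nearly limited to Ccr7 cells, at 279 CPM against 2.96 CPM in Xcr1 or Clec9a cells. Median H2-Ab1, a gene of the rule, was 156.5 UMIs a cell in Xcr1 or Clec9a cells, 87.5 in Cd209a cells and 76 in Ccr7 cells. Median depth was 18264, 12300 and 18064 UMIs in the same order. In Ccr7 cells H2-Ab1 ran from 22 to 696 UMIs a cell. Cd74, the invariant chain, was at 19039 CPM in Xcr1 or Clec9a cells, 20781 CPM in Cd209a cells and 20709 CPM in Ccr7 cells, against 15222 CPM in 309 C1qa macrophages with H2-Ab1 and 9901 CPM in 351 Cd79a B cells with H2-Ab1. H2-Aa, the I-A alpha chain, was at 8035, 7828 and 8826 CPM in the classes, against 5708 and 3403 CPM in macrophages and B cells. The peptide-loading machinery was not as even. H2-DMa and H2-DMb1, the chains that exchange peptides on class II, were at 872 and 740 CPM in Xcr1 or Clec9a cells and at 328 and 99.2 CPM in Ccr7 cells. March1, the ubiquitin ligase that removes class II from the surface, was at 176, 96.7 and 6.01 CPM in the same order of classes, and Ifi30, a lysosomal thiol reductase, at 657, 1589 and 2279 CPM. Ctss, the cathepsin that trims the invariant chain, was at 455 to 909 CPM in the classes and 3945 CPM in macrophages.

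Of the checkpoint and co-stimulatory genes, Cd274, Cd40 and Cd80 were highest in the Ccr7 class, and others were not. Cd274 was at 802 CPM in Ccr7 cells against 21.7 and 35.9 CPM in the other classes, and its values by mouse were 330 and 683 CPM in WT and 904 and 1080 CPM in Tubb3-/- mice. Cd40 was at 349 CPM against 15.1 and 35.9 CPM, and Cd80 at 520 CPM against 126 and 127 CPM. Havcr2, which encodes TIM-3, ran the other way, at 428 CPM in Xcr1 or Clec9a cells, 94.0 CPM in Cd209a cells and 45.1 CPM in Ccr7 cells. Cd86 and Cd83 were found at 282 to 990 and at 995 to 1528 CPM and so were present in every class.

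The chemokine and cytokine genes divided between the classes. Ccl22, Ccl17 and Ccl5 were at 2204, 1701 and 1217 CPM in Ccr7 cells, and at most 111, 232 and 30.4 CPM in the other 2 classes. Ccl4, a chemokine of inflamed tissue, was at 560 CPM in Xcr1 or Clec9a cells, 937 CPM in Cd209a cells and 72.1 CPM in Ccr7 cells. Ccl6 and Ccl9, chemokines of the myeloid lineage, were highest in Cd209a cells at 649 and 511 CPM, below the 1736 and 729 CPM of macrophages. Il1b was at 545 CPM in Xcr1 or Clec9a cells and at 1876 and 1726 CPM in Cd209a and Ccr7 cells, close to the 1864 CPM of macrophages. Ccr2, the receptor of blood-derived cells entering tissue, was at 164, 315 and 16.5 CPM. The plot of functional genes gives these levels beside those of macrophages and B cells.

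**Figure D3:**
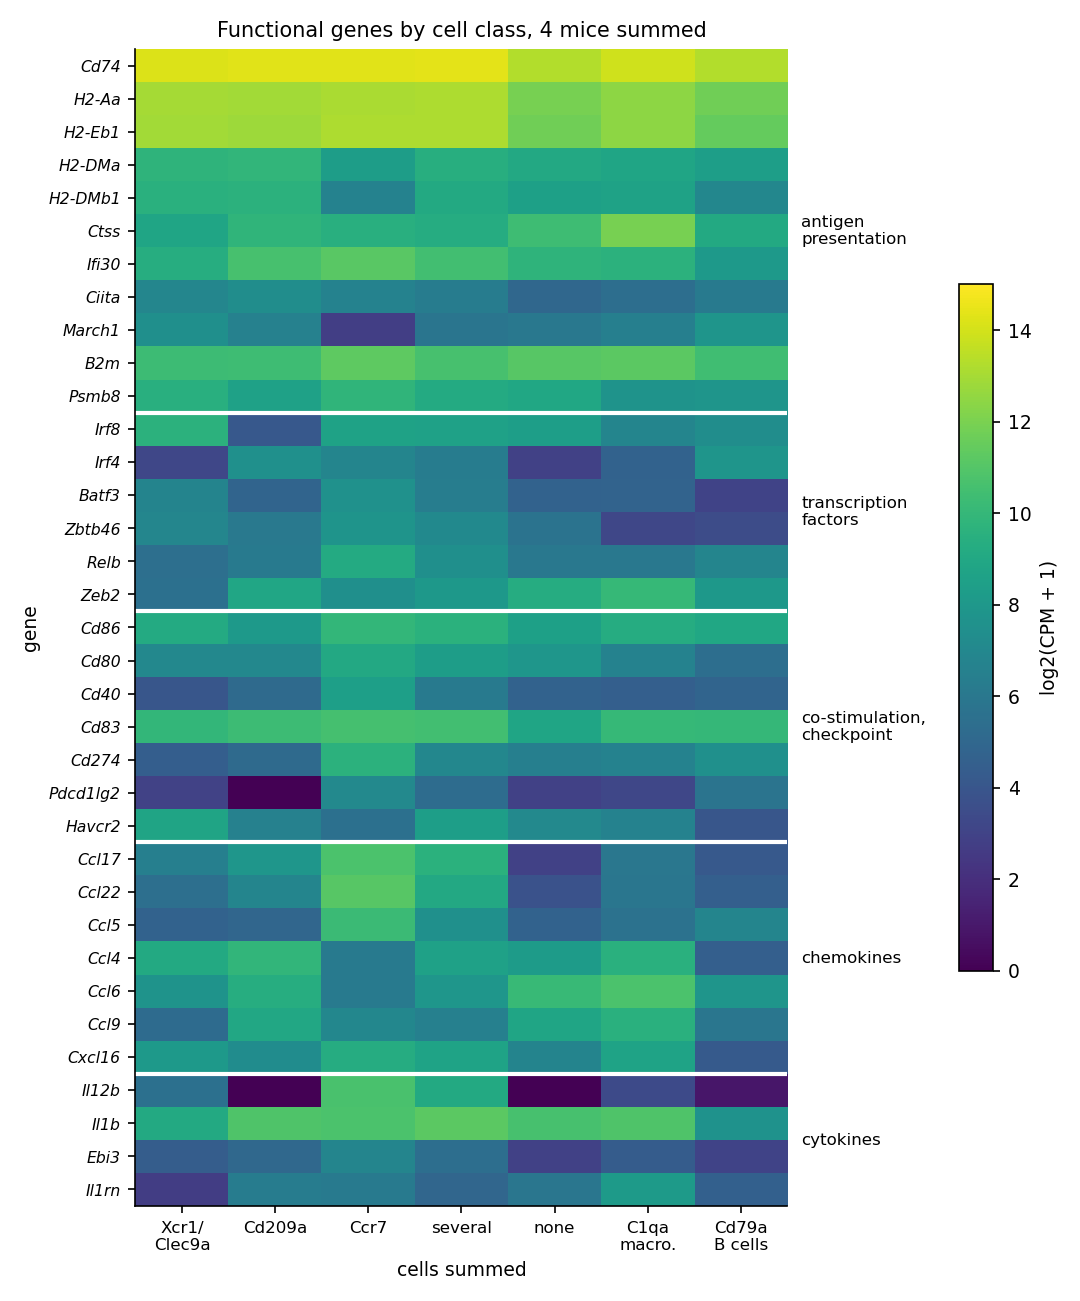
Levels of antigen presentation, transcription factor, co-stimulation and checkpoint, chemokine and cytokine genes as log2(CPM + 1), with the cells of all 4 mice summed within each class and, for comparison, in C1qa macrophages and Cd79a B cells that carried H2-Ab1. Cd274, Ccl22, Ccl17 and Il12b were highest in the Ccr7 cells, and Irf8 and Irf4 separated the Xcr1 or Clec9a cells from the Cd209a cells.

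Proliferation genes were found in every class. Mki67 was at 77.9 CPM in Xcr1 or Clec9a cells, 93.9 CPM in Cd209a cells and 70.6 CPM in Ccr7 cells, against 13.9 CPM in B cells. Within Xcr1 or Clec9a cells the mice differed widely, with normalised Mki67 at 136 and 6.18 CPM in WT mice 1 and 2 and 70.5 and 71.2 CPM in Tubb3-/- mice. WT mouse 2 was the low one.

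Markers of other cells were found in the cDCs at different levels. Summed over 10 macrophage markers that the rule did not use, the level was 222 and 495 CPM in WT and 190 and 174 CPM in Tubb3-/- mice, against 22258 CPM in macrophages. Monocyte markers summed to 936 and 1529 CPM in WT and 786 and 758 CPM in Tubb3-/- mice over 9 genes, against 1442 CPM in Cd209a cells and 1595 CPM in macrophages, and mast cell and basophil markers to at most 2.33 CPM over 5 genes, 2 of which were at 0. Both macrophage and monocyte sums were higher in both WT mice, most of all in WT mouse 2. Sftpc and Scgb1a1, abundant secreted-cell transcripts of alveolar and airway epithelium, were at 180 and 606 CPM in cDCs and at 154 to 271 and 580 to 646 CPM across the classes and mixed cells, a level much alike in every class.

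The requirement for no Epcam removed more cells than any other. Of 1012 whole-cell library cells that met the Flt3 and H2-Ab1 limits, 441 (43.6%) held Epcam, 158 of them at 1 UMI, and 268 were left out by Epcam alone. Cdh5 was found in 148 of the 1012, C1qa in 130, Cd79a in 91, Pdgfra in 85 and Cd3e in 52. In the endothelial cells Epcam was found in 1.54%, so its share in these cells was far above that level. The 268 cells comprised 95 and 49 cells of the WT mice and 64 and 60 of Tubb3-/- mice, and 174 of them were Xcr1 or Clec9a cells.

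Most cells left out by Epcam alone were Xcr1 or Clec9a cells, with keratins, Irf8 and Wdfy4 near the levels of the cDCs of that class. They were chosen for Flt3, H2-Ab1 and a class gene, and the epithelial cells below for lacking Flt3 and Ptprc. Their separation is therefore a description. The 8 left-out Cd209a cells held Irf8 at 14.2 CPM. In the 174 left-out Xcr1 or Clec9a cells, Epcam was at 185 CPM, whereas the keratins Krt8 and Krt18 were at 1.67 and 3.06 CPM. In 431 Epcam cells without Flt3 and Ptprc, Epcam was at 268 CPM and Krt8 and Krt18 were at 599 and 634 CPM. Irf8 and Wdfy4 were at 830 and 1024 CPM in the left-out cells, against 797 and 1012 CPM in the Xcr1 or Clec9a cDCs and 10.0 and 3.57 CPM in the epithelial cells. Sftpc was at 166 CPM in the left-out cells and 180 CPM in the Xcr1 or Clec9a cDCs, against 43969 CPM in the epithelial cells. Cldn1, a tight junction gene, was at 249 CPM in the left-out cells and 141 CPM in the cDCs of that class, and at 2.34 CPM in the epithelial cells. Cd207, which encodes langerin, was at 144 CPM against 46.7 CPM and Ccl17 at 478 CPM against 88.4 CPM. Since Epcam chose these cells, their differences from the cDCs are a description. With Epcam allowed, cDCs were 5.84% and 3.46% of kept whole-cell library cells in WT and 3.76% and 3.79% in Tubb3-/- mice, which overlapped.

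**Figure D4:**
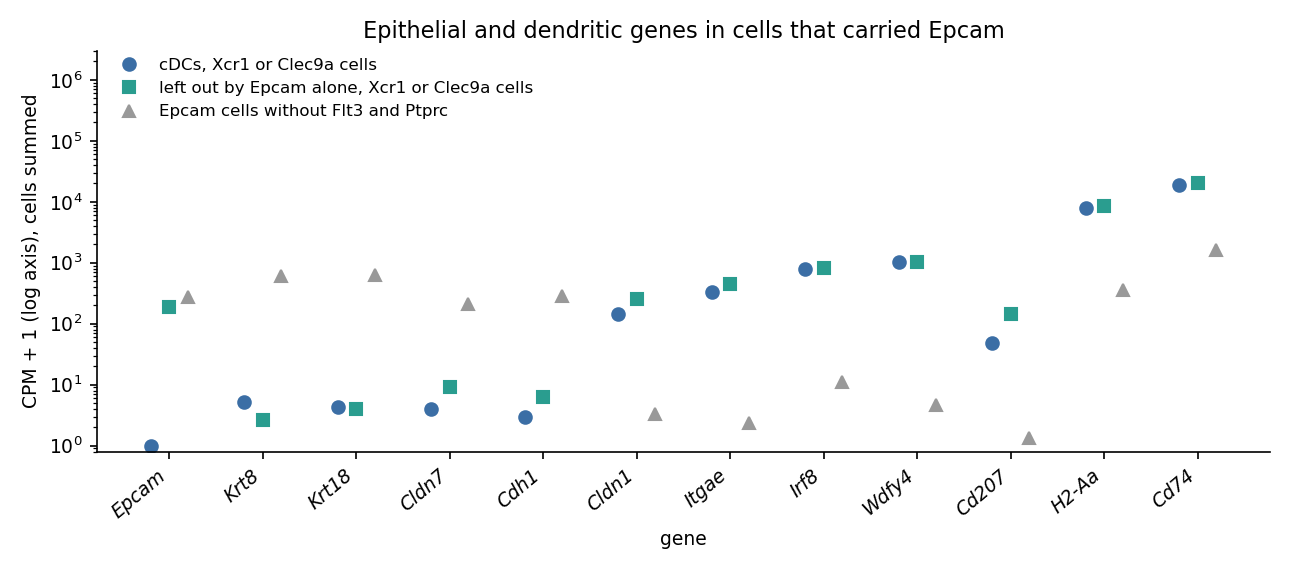
Levels (CPM + 1, log axis) of epithelial and dendritic genes in the 164 Xcr1 or Clec9a cDCs, in the 174 Xcr1 or Clec9a cells left out by Epcam alone, and in 431 Epcam cells without Flt3 and Ptprc, all from the whole-cell libraries with mice summed. The left-out cells, chosen for Epcam, held 185 CPM of it against 268 CPM in the epithelial cells, and lay with the cDCs in keratins, Irf8, Wdfy4 and Cd74.

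Between genotypes, 17 of 8521 genes tested over all cDCs passed an adjusted p of 0.05 (0.200%), 4 higher and 13 lower in Tubb3-/- mice. The test was edgeR's quasi-likelihood test on UMIs summed per mouse, p-values being adjusted by Benjamini-Hochberg over the 8521 genes, with n = 2 mice a group, and 819 genes had an unadjusted p under 0.05. Without the 4 cells that Scrublet marked, all in WT mice, 2 genes passed (Timd4 and Dnase1l3), and with Epcam allowed 0 passed by edgeR (1016 at an unadjusted p under 0.05), although all 17 kept their direction in both. In cDCs summed over classes, a change in the share of a class and a change of level within a cell cannot be told apart, so values within the Xcr1 or Clec9a cells, which are part of the same cells of the same mice, are also given for some genes. The gene lists below were chosen with earlier results of these data known, so counts of their members are a description and not a test.

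Genes of MHC class II presentation included 1 of the 4 that rose. Ciita, the master transactivator of MHC class II genes, on chromosome 16 from 10480059 to 10528418, was at 66.7 and 68.2 normalised CPM in WT and 135 and 160 CPM in Tubb3-/- mice. The genotypes did not overlap, and the log2 difference was 1.13 ± 0.18 (SE, edgeR adjusted p = 0.0372). Within Xcr1 or Clec9a cells Ciita was at 66.9 and 80.4 CPM in WT and 167 and 168 CPM in Tubb3-/- mice, a log2 difference of 1.20 (edgeR adjusted p = 0.118), and in the cells left out by Epcam alone at 86.3 and 83.8 against 157 and 140 CPM. In macrophages it was 54.7 and 25.4 CPM in WT and 41.1 and 40.8 CPM in Tubb3-/- mice, and the test of the difference between cDCs and macrophages gave an edgeR adjusted p of 0.412. Of the 14 class II genes tested other than H2-Ab1, which the rule used, 1 rose and none fell. In 6 the mice did not overlap with Tubb3-/- higher, against 20.0% of all genes, and the median log2 difference was 0.08 against 0.00 over all genes. The class II molecules themselves differed little, with H2-Aa at 8446 and 8073 CPM in WT and 8486 and 8384 CPM in Tubb3-/- mice and Cd74 at 18981 and 19961 CPM in WT and 20374 and 21048 CPM in Tubb3-/- mice (log2 difference 0.09 ± 0.04, edgeR adjusted p = 0.481). Ifi30 was at 959 and 900 CPM in WT and 1355 and 1271 CPM in Tubb3-/- mice (edgeR adjusted p = 0.0801).

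The other genes that rose were Dnase1l3, Bcl2l14 and Actb. Dnase1l3, a secreted DNase of dendritic cells and macrophages, was at 24.8 and 22.1 CPM in WT and 102 and 81.6 CPM in Tubb3-/- mice, higher by 1.96 ± 0.23 on the log2 scale (edgeR adjusted p = 0.0168). Within Xcr1 or Clec9a cells Dnase1l3 was at no more than 35.1 CPM in both WT mice and at 87.0 and 83.0 CPM in Tubb3-/- mice (edgeR adjusted p = 0.164). The genotypes overlapped in the cells left out by Epcam alone, where Dnase1l3 was at 52.1 and 67.4 CPM against 61.3 and 61.2 CPM. Its log2 difference changed sign, to -0.32, when all kept cells were thinned to 3000 UMIs and the rule was applied again. That gave a different set of cDCs, 93 and 41 in WT and 84 and 65 in Tubb3-/- mice. Bcl2l14, a BCL-2 family member, was at 27.9 and 43.1 CPM in WT and 96.0 and 99.3 CPM in Tubb3-/- mice (edgeR adjusted p = 0.0293), and Actb, cytoplasmic actin, was higher by 0.38 on the log2 scale (edgeR adjusted p = 0.0293). Actb did not pass by DESeq2, where it was higher by 0.37 (DESeq2 adjusted p = 0.895). With Epcam allowed the Actb log2 difference was 0.24 (edgeR adjusted p = 0.332). The gene with the smallest p among those that did not pass was Bcl6, a repressor needed by cDC1s, at 53.2 and 59.2 CPM in WT and 111 and 131 CPM in Tubb3-/- mice.

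Of the 11 chemokine genes tested 2 fell and none rose, and 4 had groups that did not overlap with Tubb3-/- lower, against 19.4% of all genes. Ccl6, on chromosome 11 from 83587882 to 83593087, was at 301 and 518 CPM in WT and 121 and 138 CPM in Tubb3-/- mice, a log2 difference of -1.65 ± 0.23 (edgeR adjusted p = 0.0284). Its neighbour Ccl9, from 83572919 to 83578636, was at 150 and 158 CPM in WT and 44.7 and 67.0 CPM in Tubb3-/- mice, a log2 difference of -1.47 ± 0.21 (edgeR adjusted p = 0.0286). Within Xcr1 or Clec9a cells Ccl6 was at 191 and 669.9 CPM in WT and 71.5 and 91.5 CPM in Tubb3-/- mice, and Ccl9 at 44.9 and 115 CPM in WT and 11.4 and 8.47 CPM in Tubb3-/- mice. WT mouse 2 stood highest for both, and it also had the highest macrophage and monocyte marker sums. Without the Scrublet-marked cells the Ccl6 log2 difference over all cDCs was -0.99 (edgeR adjusted p = 0.149). In macrophages Ccl6 and Ccl9 differed by 0.63 and 0.51 on the log2 scale, toward higher in Tubb3-/- mice, and the test of cDCs against macrophages gave an edgeR adjusted p of 0.0504 for both genes, which did not pass.

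Genes of the matrix list that fell were Fn1 and Thbs1, 2 of 10 tested, against 13 of 8521 genes over all. As the list was chosen with earlier results of these data known, this count is a description. Without overlap 6 of the 10 were lower and 2 higher, against 19.4% and 20.0% of all genes. Fn1, fibronectin, was at 139 and 160 CPM in WT and 69.5 and 57.3 CPM in Tubb3-/- mice (log2 difference -1.22 ± 0.19, edgeR adjusted p = 0.0293). Thbs1, thrombospondin 1, was at 97.1 and 180 CPM in WT and 28.3 and 38.0 CPM in Tubb3-/- mice (log2 difference -2.05 ± 0.30, edgeR adjusted p = 0.0286). Without the Scrublet-marked cells the Fn1 log2 difference was -0.36 (edgeR adjusted p = 0.700), and that of Thbs1 was -2.06 (edgeR adjusted p = 0.128). Within Xcr1 or Clec9a cells Fn1 was at 135 and 266 CPM in WT and 49.7 and 52.5 CPM in Tubb3-/- mice (edgeR adjusted p = 0.114). There Thbs1 overlapped between genotypes, at 21.9 and 132 CPM in WT and 18.7 and 30.5 CPM in Tubb3-/- mice (edgeR adjusted p = 0.635). Both genes were far higher in macrophages and in the cells with none of the class genes than in Xcr1 or Clec9a cells, with Fn1 at 1463, 540 and 109 CPM and Thbs1 at 243, 1087 and 39.4 CPM. With the cells of no class left out, both still passed over all cDCs. The log2 differences were then -1.47 for Fn1 and -1.74 for Thbs1 (edgeR adjusted p = 0.0240 for both).

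Further genes that fell were Mmp19, Timd4, Cebpb, Mast4, Pparg, S100a10, Emp1, Cenpa and Xylt1. Timd4, the phosphatidylserine receptor TIM-4, was at 163 and 177 CPM in WT and 64.8 and 54.9 CPM in Tubb3-/- mice (log2 difference -1.49 ± 0.18, edgeR adjusted p = 0.0168). Its groups of mice also did not overlap in the cells left out by Epcam alone, at 193 and 319 CPM against 93.8 and 171 CPM, which held for Mast4, S100a10 and Fn1 as well. Within Xcr1 or Clec9a cells Timd4 was at 147 and 169 CPM in WT and 68.4 and 52.5 CPM in Tubb3-/- mice (edgeR adjusted p = 0.114). It was at 12.3 CPM in macrophages. Mmp19, a matrix metalloproteinase, was at 81.1 and 111 CPM in WT and 20.0 and 24.2 CPM in Tubb3-/- mice (log2 difference -2.11 ± 0.25, edgeR adjusted p = 0.0168). Cebpb, a transcription factor of myeloid and inflammatory genes, was at 224 and 284 CPM in WT and 99.5 and 103 CPM in Tubb3-/- mice (edgeR adjusted p = 0.0245), and at 108 and 60.3 CPM against 109 and 85.3 CPM in the cells left out by Epcam alone. Pparg, a nuclear receptor of alveolar macrophages, was at 32.6 and 28.1 CPM in WT and 3.53 and 5.65 CPM in Tubb3-/- mice (edgeR adjusted p = 0.0271). In the cells left out by Epcam alone it was at 3.68 and 5.11 CPM in WT and 4.33 and 8.02 CPM in Tubb3-/- mice. Pparg did not pass without the Scrublet-marked cells (edgeR adjusted p = 0.142) or by limma-voom (adjusted p = 0.0622).

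**Figure D5:**
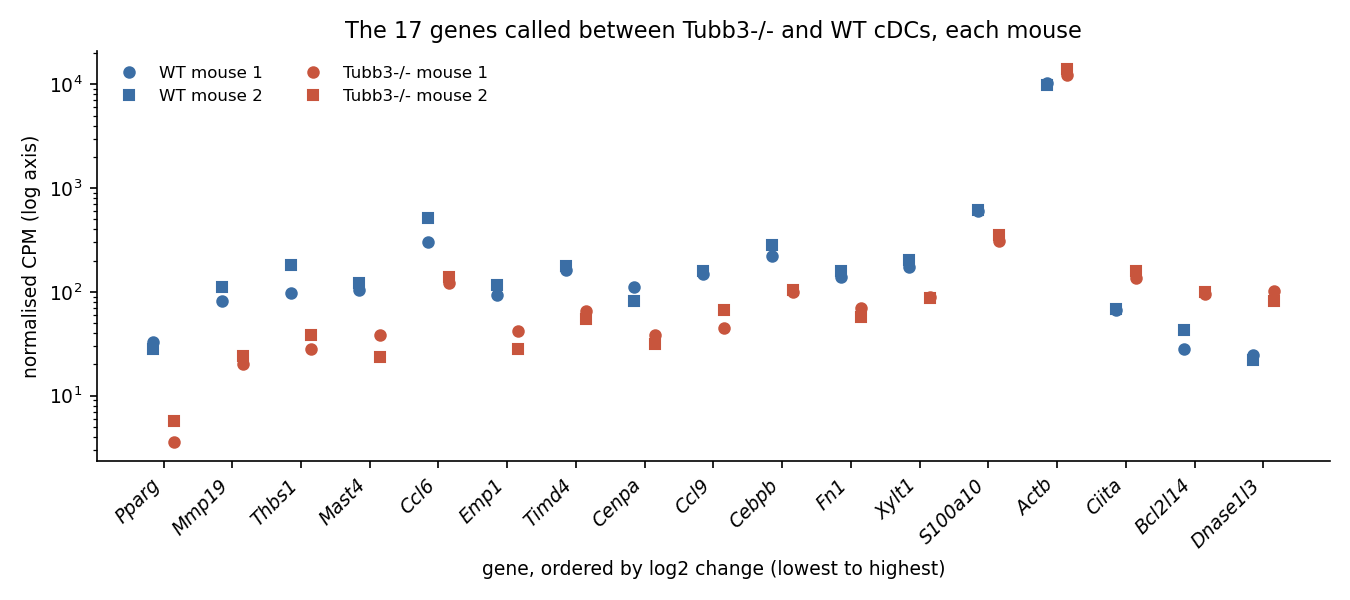
Normalised CPM (log axis) of the 17 genes with an adjusted p under 0.05 in each mouse, over all cDCs; circles are mouse 1 and squares mouse 2 of each genotype. The groups of mice did not overlap for any of the 17, as was true of 20.0% (higher) and 19.4% (lower) of all genes tested.

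The Xcr1 or Clec9a cells are 164 of the 327 cells in which the 17 genes were called, so the shared direction of all 17 there is no further evidence. In the cells left out by Epcam alone, which came from the same mice and so are no further replicates, 13 of 17 were on the same side and 7 did not overlap. Among macrophages 7 of the 14 that could be tested were on the same side, and among B cells 6 of 13.

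None of the cDC1 genes passed the test, and most had higher values in the Tubb3-/- mice. Of 15 cDC1 markers tested over all cDCs, Xcr1 and Clec9a left out, 10 were higher in Tubb3-/- mice without overlap (20.0% of all genes) and 1 was lower, and the median log2 difference was 0.45 against 0.00 for all genes. Within the Xcr1 or Clec9a cells, where the share of the class does not enter, the counts were 11 higher and 1 lower of 15, against 19.7% and 18.9% of the 6688 genes tested there, with a median of 0.51 against -0.01. In the same cells 3 of 3 monocyte markers and 1 of 3 macrophage markers were lower without overlap and 0 higher, with median log2 differences of -1.92 and -0.82. Scrublet marked 3 cells of this class, all in WT mice. The part of doublets or of RNA from other myeloid cells in the cDC1 values was not tested. Irf8 was at 617 and 666 CPM in WT and 934 and 1083 CPM in Tubb3-/- mice in this class, and Itgae at 261 and 216 CPM in WT and 407 and 434 CPM in Tubb3-/- mice. Btla, an inhibitory receptor, was at 199 and 208 CPM in WT and 409 and 339 CPM in Tubb3-/- mice. Rab7b, which regulates late endosomes, was the one lower, at 385 and 385 CPM in WT and 300.5 and 302 CPM in Tubb3-/- mice.

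None of the cDC2 markers passed. Of the 13 tested over all cDCs that the rule did not use, 4 were higher and 7 lower without overlap, against 20.0% and 19.4% of all genes. Mgl2 was at 237 and 151 CPM in WT and 122 and 71.9 CPM in Tubb3-/- mice, whereas Clec10a was at 63.0 and 27.1 CPM in WT and 84.8 and 92.1 CPM in Tubb3-/- mice. Zeb2, a transcription factor of cDC2s and monocytes, was at 212 and 217 CPM in WT and 124 and 94.5 CPM in Tubb3-/- mice (edgeR adjusted p = 0.0651).

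The mature migratory markers were not separated by genotype. Of 19 tested other than Ccr7, 1 was higher and 2 lower without overlap, against 20.0% and 19.4% of all genes, and none passed. Ccr7, which chose cells, was at 415 and 567 CPM in WT and 304 and 687 CPM in Tubb3-/- mice, Fscn1 at 148 and 131 against 148 and 329 CPM, and Ccl22 at 405 and 627 against 185 and 664 CPM. Tubb3-/- mouse 2, with the highest share of Ccr7 cells, was the highest for all of them.

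Among the remaining lists none of the members tested passed, and their counts without overlap, rule genes left out, stand against 20.0% higher and 19.4% lower over all genes. MHC class I and cross-presentation genes had 8 of 18 higher and 3 lower, co-stimulation and checkpoint genes 7 and 2 of 19, cytokines 1 and 5 of 12, pattern recognition receptors 4 and 4 of 14, and genes of cDC development 5 and 8 of 23. Interferon response genes had 4 higher and 3 lower of 28, chemokine receptors 1 and 3 of 7, tubulins 2 and 3 of 9, and immediate-early and heat shock genes 7 and 4 of 21. Of 4 ILC2 markers all were lower without overlap, and their levels were low, with Il1rl1 at 12.9 and 7.02 CPM in WT and 4.12 and 3.23 CPM in Tubb3-/- mice. Cell cycle genes had 7 of 21 lower and none higher, with Ube2c at 148 and 63.2 CPM in WT and 27.7 and 8.88 CPM in Tubb3-/- mice (edgeR adjusted p = 0.0633). Their summed level overlapped, at 2286 and 1055 CPM in WT and 1158 and 1122 CPM in Tubb3-/- mice. Within the Xcr1 or Clec9a cells none of 18 cell cycle genes was without overlap. Of 7 macrophage markers 4, and of 8 monocyte markers 4, were lower without overlap, the sums of which are given above.

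Within single classes few genes passed. In Xcr1 or Clec9a cells 0 of 6688 genes passed by edgeR (0%), with 535 at an unadjusted p under 0.05 and 20 by DESeq2. In Ccr7 cells 0 of 2139 passed (0%), with 175 at an unadjusted p under 0.05 and 6 by DESeq2. In Cd209a cells 1 of 1471 passed (0.0680%). It was Fos, an immediate-early transcription factor, at 276 and 161 CPM in WT and 1597 and 1511 CPM in Tubb3-/- mice (log2 difference 2.80 ± 0.36, edgeR adjusted p = 0.0318), from 6 or 7 cells a mouse. No gene passed there with cells of several classes kept, without Tubb3-/- mouse 2, or with the replicate number as a block. Fos overlapped between genotypes in Ccr7 cells, at 278 and 422 CPM against 542 and 237 CPM, and in Xcr1 or Clec9a cells, at 567 and 672 CPM against 774 and 620 CPM. Whether the genotype difference itself varied among the classes was tested with an interaction term within mice, and 0 of 3283 genes passed by edgeR (0%), with 205 at an unadjusted p under 0.05. Fos was not among those that passed (edgeR adjusted p = 0.592).

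The 309 macrophages came from both pools, 104 of them from the mural-enriched one, with 16 of 82, 31 of 49, 35 of 113 and 22 of 65 in WT mice 1 and 2 and Tubb3-/- mice 1 and 2. Against them the genotype difference of 4 of 9495 genes differed (0.0421%), all lower in cDCs relative to macrophages. These were Slc7a11, a cystine transporter, Mmp19, Hist1h1b, a linker histone, and Ctsd, the protease cathepsin D. With macrophages of the whole-cell pool alone none of the 4 passed (edgeR adjusted p from 0.0871 to 0.215) and 1 other gene did, Ccl6, by -1.95 on the log2 scale (edgeR adjusted p = 0.0446). Macrophage Ctsd was at 1401 and 1425 CPM in WT and 3108 and 3005 CPM in Tubb3-/- mice, and cDC Ctsd at 212 and 221 against 174 and 81.6 CPM. The count was 72 without WT mouse 1, 61 without WT mouse 2, 3 without Tubb3-/- mouse 2 and 0 without Tubb3-/- mouse 1.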

How the data were processed

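Whole lung cells and mural-enriched cells of 2 WT and 2 Tubb3-/- mice were profiled by droplet 3' single-cell RNA sequencing. The authors deposited UMI counts per gene and cell, split by mouse with sample tags and made with Cell Ranger 7.1.0 against mm10 with a Cre sequence, per the submitters' processing notes; the annotation version is not given in the sources used here. Tag rows, 26.2% to 36.4% of UMIs, were left out. Counts of cDCs were summed per mouse, filtered with filterByExpr, TMM-normalised and tested with edgeR 4.0.16 in R 4.3.3; DESeq2 1.42.0 and limma 3.58.1 were alternatives, and Scrublet in scanpy 1.11.5 marked doublets, which stayed in. CPM that describe classes and other cell sets are UMIs scaled to the summed UMIs of the cells. CPM of genes in a genotype test are edgeR's, scaled to the UMIs of the genes kept by the filter and TMM-normalised. The same gene can therefore have slightly different values in the same cells. Class genes were ranked by the lowest per-mouse log2 ratio after adding 10 CPM. Named genes were the 17 that passed, leading class genes and listed genes. Members and lists were chosen with earlier results of these data known. On simulated data with 200 of 8521 genes changed, a log2 change of 1 was recovered in 36.3% and of 2 in 90% of the changed genes. The mean number of false calls was 3.67 and 11. Every simulated gene had the same spread between mice, so genes of larger spread were not covered. p-values measure spread between mice; intervals cover counting error only. Some items are not reported here.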

Additional observations from a re-analysis of the deposited data

Results flagged for a closer look

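For 4 genes the genotype difference in cDCs differed from that in C1qa macrophages of the same mice by an interaction term (edgeR quasi-likelihood test, adjusted p = 0.0442 for each). Slc7a11 differed by -2.46 on the log2 scale, with cDCs at 59.4 and 23.1 CPM in WT and 8.24 and 10.5 CPM in Tubb3-/- mice, and macrophages at 302 and 129 against 243 and 290 CPM. Mmp19 differed by -2.33, with macrophages at 369 and 299 CPM in WT and 330 and 456 CPM in Tubb3-/- mice. Hist1h1b differed by -7.04, with macrophages at 0.804 and 0 CPM in WT and 62.1 and 8.31 CPM in Tubb3-/- mice, so this value depends on counts near 0. Ctsd differed by -1.96. The macrophages included 104 cells of the mural-enriched pool. With those of the whole-cell pool alone none of the 4 passed, at edgeR adjusted p = 0.215 for Slc7a11 and 0.0871 for the others, with differences of -2.27 for Slc7a11, -1.94 for Mmp19, -7.07 for Hist1h1b and -1.88 for Ctsd. The part of doublets or of macrophage RNA in cDCs was not tested for these 4 genes.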

How the results depend on the processing

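Of 252 values of the 17 genes under alternatives, 184 kept direction and call, 67 kept direction and lost the call, and 1 reversed (Dnase1l3, -0.32 with cells thinned to 3000 UMIs). Of the 252, 17 were for the whole-cell libraries alone. All cDCs came from those libraries, so these 17 repeat the main fit and could not differ from it. Against 17 genes called over all cDCs, 239 were called with no filter on low counts and 33 with Flt3 at 2 or more UMIs. Thinning, with the rule applied again to the thinned cells, gave 3, leaving out doublets 2 and allowing Epcam 0. In Xcr1 or Clec9a cells, with 0 called, DESeq2 called 20, no filter 174, Epcam allowed 17 and cells of several classes kept 34. In Cd209a cells, with 1 called, these were 12, 77, 39 and 0. In Ccr7 cells, with 0 called, DESeq2 called 6 and no filter 56. With no filter the class interaction gave 63 and the macrophage interaction 191, against 4, and 1 with macrophages of the whole-cell pool alone. The Cd209a share difference was 1.64 percentage points with Epcam allowed, against -0.461. Leaving out 1 mouse gave 20 to 290 genes over all cDCs, 9 to 232 in Xcr1 or Clec9a cells, 0 to 51 in Cd209a cells, 26 to 87 in Ccr7 cells, 0 to 2 for the class interaction and 0 to 72 for the macrophage interaction, with the lone mouse assumed to vary like the other group. The cause of these changes was not tested. With the replicate block 286 genes were called over all cDCs, 28 in Xcr1 or Clec9a cells and 0 in Cd209a cells. The numbers also went with Y-linked transcripts (replicate 1) or Xist (replicate 2) in both genotypes, no label gives a shared litter or batch, and the correlation of deviations was 0.189 over 2880 genes. Alternatives taking whole-cell pool macrophages alone, allowing Epcam, keeping cells of several classes and leaving out cells of no class were chosen after seeing the data. The Cd209a class rests on 6 or 7 cells a mouse.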
